A study of Arabidopsis thaliana with 18 samples.

Results

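COR15A, COR15B and LTI30 are 3 cold-regulated genes of *Arabidopsis thaliana*, and their transcript levels are described here across 2 genotypes and 3 times after a change of light colour. The genes were chosen by the pattern of COR15A on the arrays of 0 and 30 min, whose signal was higher at 30 min than at 0 min in the wild type and lower at 30 min than at 0 min in the stn7 mutant. Each gene is read by 1 probe set, out of 22746 gene probe sets on the array. COR15A (AT2G42540) is read by probe set 263497_at, COR15B (AT2G42530) by 263495_at and LTI30 (AT3G50970, also named XERO2) by 252102_at.

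The 6 groups held 3 arrays each, 18 in all, and were stn7 and Col-0 wild type (WT) at 0, 30 and 60 min. The stn7 line is a knockout in the Col-0 background, and 1 such line was used. It lacks STN7, a thylakoid protein kinase that phosphorylates the light-harvesting proteins of photosystem II when the plastoquinone pool is reduced. All plants of both genotypes were 23 days old, had grown for 20 days in continuous white light and had then spent 3 days in light absorbed mainly by photosystem I (PSI light). Rosettes were taken still in PSI light at 0 min, or 30 or 60 min after a shift to light absorbed mainly by photosystem II (PSII light). Each sample was a pool of at least 250 plants, and the labels name no cold treatment. Since no plants were kept in PSI light to the later harvests, an effect of the shift and of harvest time cannot be told apart within a genotype. The transcript of STN7 itself was not analysed here, so the array values give no check of the genotype labels.

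COR15A and COR15B encode closely related small proteins of the late embryogenesis abundant (LEA) type that are imported into the chloroplast stroma and protect chloroplast membranes when cells freeze. LTI30 is a dehydrin, a hydrophilic LEA protein that binds to membranes when cells lose water. In Arabidopsis all 3 genes are switched on in the cold by the CBF/DREB1 transcription factors, which bind a short element in their promoters, and by drought and abscisic acid. Light quality and the circadian clock are also known to act on the CBF genes.

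Values are log2 signals, so that a difference of 1 is a doubling, and levels of different probe sets were not set against each other as amounts of RNA. COR15A and COR15B gave bright probe sets, at the 94.6th and 94.3rd percentile of mean signal over all arrays, and LTI30 lay at the 54.9th percentile. The spread between arrays of a group was wider than for most probe sets. The pooled SD was 0.24 for COR15A, 0.26 for COR15B and 0.61 for LTI30, the last at the 99.8th percentile of all probe sets. In bulk leaf RNA, fewer cells of a type and less RNA per cell cannot be told apart. COR15A and COR15B are near copies, and how far RNA of one binds the probes of the other was not tested.

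COR15A had the widest separation between the genotypes. In stn7 its signals were 10.10, 10.17 and 9.79 at 0 min, 8.94, 8.84 and 8.68 at 30 min, and 9.38, 10.02 and 10.08 at 60 min. In WT they were 9.80, 9.84 and 10.28 at 0 min, 11.05, 10.86 and 10.90 at 30 min, and 11.22, 10.72 and 10.97 at 60 min. The genotypes overlapped at 0 min, and at 30 and 60 min every stn7 array was below every WT array. The group means were 10.02 ± 0.20, 8.82 ± 0.13 and 9.82 ± 0.38 in stn7, against 9.97 ± 0.27, 10.94 ± 0.10 and 10.97 ± 0.25 in WT (SD, n = 3 each).

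COR15B, the neighbouring copy, was separated by genotype at the same times, with smaller differences. In stn7 its signals were 10.03, 10.31 and 10.07 at 0 min, 9.61, 9.03 and 8.97 at 30 min, and 9.34, 10.06 and 9.91 at 60 min. In WT they were 10.04, 10.11 and 10.08 at 0 min, 10.50, 10.52 and 10.28 at 30 min, and 10.70, 10.15 and 10.57 at 60 min. The genotypes overlapped at 0 min and were separate at 30 and 60 min. Its group means were 10.14 ± 0.16, 9.20 ± 0.35 and 9.77 ± 0.38 in stn7, against 10.08 ± 0.03, 10.43 ± 0.14 and 10.47 ± 0.29 in WT (SD, n = 3 each).

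LTI30 was low in stn7 at 30 min and varied most at 0 min. In stn7 its signals were 7.06, 6.97 and 6.09 at 0 min, 5.48, 5.56 and 5.56 at 30 min, and 6.71, 5.81 and 6.33 at 60 min. In WT they were 8.32, 6.11 and 6.23 at 0 min, 7.00, 6.90 and 7.33 at 30 min, and 7.67, 7.59 and 7.01 at 60 min. WT replicate 1 at 0 min was higher than every other array of the series, and the other WT arrays at 0 min lay below all WT arrays of 30 and 60 min. The group means were 6.71 ± 0.54, 5.53 ± 0.05 and 6.28 ± 0.45 in stn7, against 6.89 ± 1.24, 7.08 ± 0.22 and 7.43 ± 0.36 in WT (SD, n = 3 each).

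**Figure D1:**
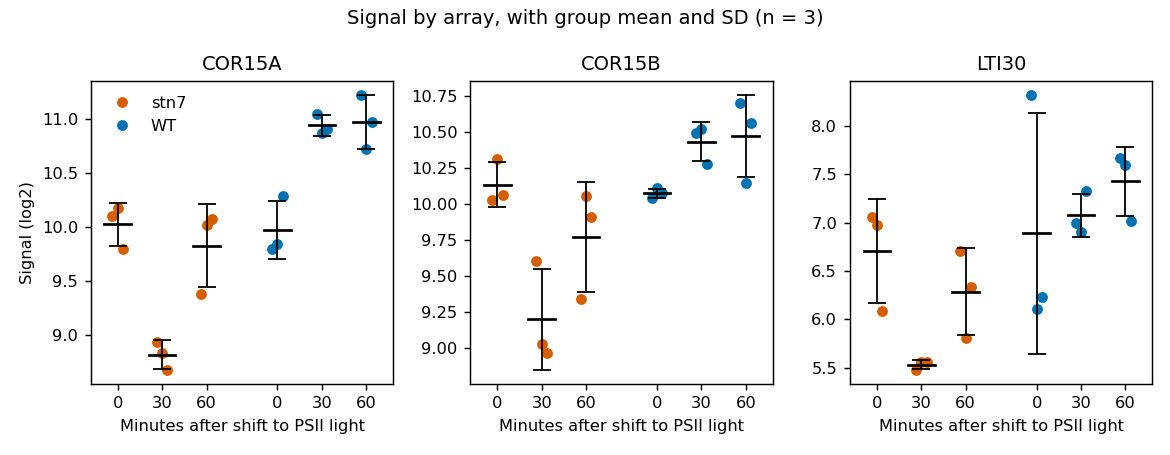
Log2 signal of COR15A, COR15B and LTI30 on each of the 18 arrays, by time after the shift to PSII light (0, 30 and 60 min), with stn7 left of WT; points are arrays and bars are group means ± SD (n = 3). The genotypes overlap at 0 min and are separate at 30 and 60 min for each gene, and LTI30 has 1 WT array of 0 min at 8.32.

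The changes with time that follow are given as a log2 difference ± SE with no p, because they rest on arrays of 0 or 30 min, which the choice of these genes used. Comparisons of 30 and of 60 min with 0 min in a genotype also share the 0 min arrays. In stn7, COR15A was lower at 30 min than at 0 min by a log2 difference of -1.21 ± 0.18. COR15B differed by -0.93 ± 0.18 and LTI30 by -1.18 ± 0.41. In each of the 3 genes all stn7 arrays of 30 min lay below all stn7 arrays of 0 min, as did 10.6% of all probe sets.

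At 60 min the stn7 means were higher than at 30 min. The log2 difference of 60 min minus 30 min in stn7 was 1.01 ± 0.18 for COR15A, 0.57 ± 0.18 for COR15B and 0.75 ± 0.41 for LTI30. The groups were separate for COR15A and LTI30, as for 16.1% of all probe sets, and overlapped for COR15B. At 60 min all 3 genes overlapped their own 0 min level in stn7, with differences of -0.20 ± 0.18 for COR15A, -0.36 ± 0.18 for COR15B and -0.42 ± 0.41 for LTI30.

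A sign of RNA quality moved with time: the mean log2 difference over 6 pairs of 3' and 5' control probe sets (actin, GAPDH and ubiquitin) was 0.93, 0.90 and 1.11 in stn7 at 0, 30 and 60 min, against 0.89, 0.87 and 1.05 in WT. In stn7 at 60 min it varied by array, at 0.94, 1.12 and 1.26 for replicates 1, 2 and 3. Replicate 1 also had the lowest COR15A and COR15B signals of that group, at 9.38 and 9.34, but its highest LTI30 signal, at 6.71. With this 3' to 5' difference as a covariate, the 60 min minus 30 min difference in stn7 was 0.66 for COR15A, 0.18 for COR15B and 0.68 for LTI30. The 60 min minus 0 min difference in stn7 was then -0.49 for COR15A, -0.70 for COR15B and -0.48 for LTI30. Its part in the changes was not tested further.

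In WT the means of all 3 genes were higher at 30 and 60 min than at 0 min. COR15A was 0.96 ± 0.18 higher on the log2 scale at 30 min than at 0 min and 1.00 ± 0.18 higher at 60 min. COR15B was higher by 0.36 ± 0.18 at 30 min and by 0.40 ± 0.18 at 60 min. For both genes all WT arrays of 30 min lay above those of 0 min, as for 18.2% of all probe sets, and so did all WT arrays of 60 min, as for 20.1%. LTI30 in WT was 0.19 ± 0.41 higher at 30 min and 0.54 ± 0.41 higher at 60 min, and its groups overlapped. Without WT replicate 1 at 0 min the LTI30 differences in WT were 0.90 at 30 min and 1.26 at 60 min. Between 30 and 60 min in WT the log2 differences were 0.03 ± 0.18 for COR15A, 0.04 ± 0.18 for COR15B and 0.35 ± 0.41 for LTI30. With the 3' to 5' covariate the WT difference of 60 minus 0 min was 0.74 for COR15A and 0.11 for COR15B, and that of 60 minus 30 min was -0.26 for COR15A and -0.29 for COR15B.

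Ordered by mean level, COR15A fell into 3 tiers: WT at 60 and 30 min on top, then stn7 at 0 min, WT at 0 min and stn7 at 60 min, and stn7 at 30 min lowest. Neighbours in that order overlapped within a tier and were separate between tiers. COR15B and LTI30 had WT at 60 and 30 min on top and stn7 at 60 and 30 min lowest. Every pair of neighbouring groups overlapped for COR15B, and for LTI30 stn7 at 30 min was separate from the group above it. Over all 22746 probe sets, 109 (0.479%) had the pattern that chose COR15A, with all 30 min arrays above those of 0 min in WT and below them in stn7. COR15B was among the 109 and LTI30 was not.

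At 0 min the genotypes were close in all 3 genes, with a log2 difference (stn7 minus WT) of 0.05 ± 0.18 for COR15A, 0.06 ± 0.18 for COR15B and -0.18 ± 0.41 for LTI30. Without WT replicate 1 the LTI30 difference at 0 min was 0.54. At 30 min the difference was -2.12 ± 0.18 for COR15A. It was -1.23 ± 0.18 for COR15B and -1.55 ± 0.41 for LTI30, and the groups were separate in each of the 3 genes, as for 10.7% of all probe sets in that direction. The 30 min change in stn7 minus that in WT was -2.17 ± 0.25 for COR15A, -1.29 ± 0.26 for COR15B and -1.36 ± 0.59 for LTI30. COR15A was the 3rd lowest of all probe sets. It was chosen by this pattern on these arrays, so the rank is a description and no test. For LTI30 the difference between the changes was -2.08 without WT replicate 1 at 0 min.

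The pattern by which the genes were chosen did not use the arrays of 60 min. The genotype difference at 60 min was tested in the limma fit over all probe sets, adjusted by the Benjamini-Hochberg method. Earlier results of these data were known when the genes were chosen, and the fit takes its variance from the arrays of all times. The tests at 60 min are therefore not shown to be independent of that choice. COR15A fell below WT in stn7 by 2.21-fold (95% confidence interval 1.71 to 2.86), a log2 difference of -1.15 ± 0.18 (adjusted p = 0.00114). COR15B was 1.63-fold lower in stn7 (1.24 to 2.13), a log2 difference of -0.70 ± 0.18 (limma adjusted p = 0.019). LTI30 had a similar log2 difference, -1.14 ± 0.41, which did not pass the threshold of 0.05 (limma adjusted p = 0.0779). So 2 of the 3 genes were called lower, against 5.54% of all probe sets called lower and 13.1% called in either direction. All 3 stn7 arrays were below all 3 WT arrays in each gene, as for 13.9% of all probe sets.

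The COR15B call at 60 min was lost without stn7 replicate 1 (limma adjusted p = 0.116), WT replicate 1 (limma adjusted p = 0.0856) or WT replicate 3 (limma adjusted p = 0.0687) of that time. It was also lost, at -0.75, with the main axis of variation within groups as a covariate (limma adjusted p = 0.0819), and with the 3' to 5' covariate it held at -0.80 (limma adjusted p = 0.00619). For LTI30 the difference was -1.14 with a limma adjusted p of 0.00723 when WT replicate 1 of 0 min was left out of the fit, a choice made after its value was seen. The 60 min change in stn7 minus that in WT was -1.19 ± 0.25 for COR15A, -0.76 ± 0.26 for COR15B and -0.96 ± 0.59 for LTI30, or -1.68 for LTI30 without that array.

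**Figure D2:**
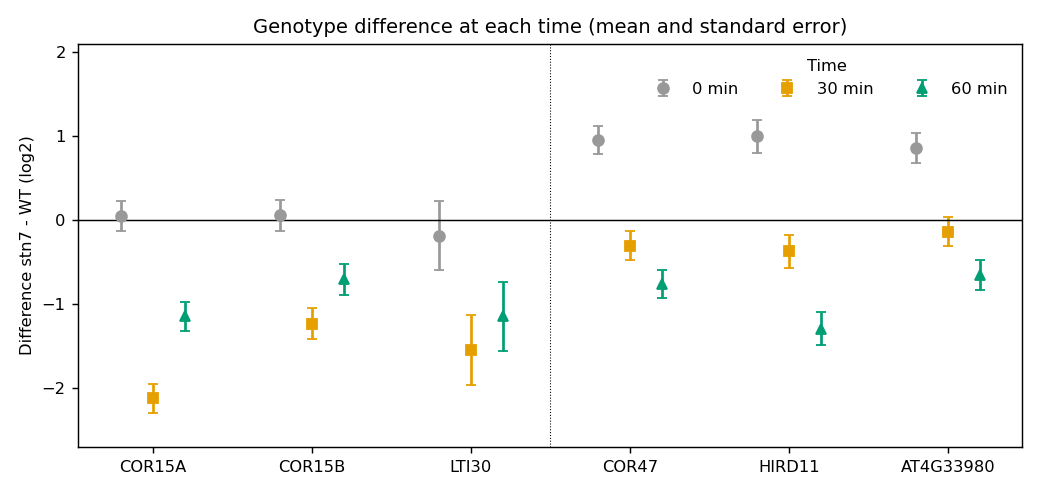
Log2 difference of stn7 minus WT (± SE, from 3 arrays a group) at 0, 30 and 60 min for COR15A, COR15B and LTI30, and for COR47, HIRD11 and AT4G33980. The 3 members are near 0 at 0 min and lowest at 30 min (COR15A at -2.12), whereas the other 3 genes are above 0 at 0 min and lowest at 60 min.

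Array by array, COR15A and COR15B moved closely together. Over the 18 arrays their Pearson correlation was 0.93 (Spearman 0.90), and it was 0.73 for deviations from the group means. COR15A and LTI30 correlated at 0.67 (Spearman 0.69), but at -0.23 within groups. COR15B and LTI30 correlated at 0.62 (Spearman 0.59), and at -0.25 within groups. The 6 group means of LTI30 correlated with those of COR15A at 0.95, although the order of the groups at 0 min differed between the genes. These correlations are descriptions, since the arrays share genotype, time and normalisation.

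**Figure D3:**
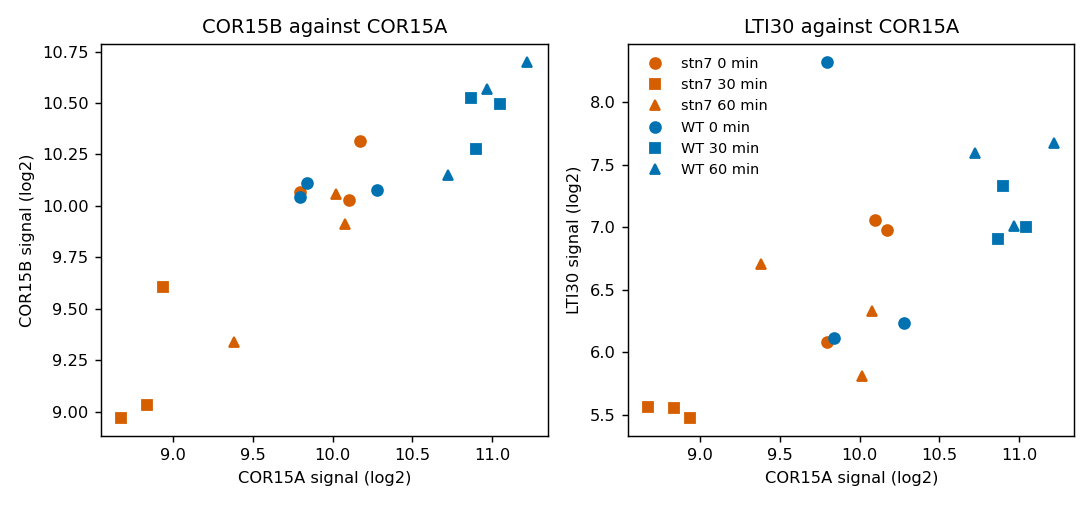
Log2 signals of COR15B and of LTI30 (vertical axes) against COR15A (horizontal axis), 1 point for each of the 18 arrays, coloured by genotype and marked by time. COR15B follows COR15A over all arrays (Pearson correlation 0.93), and LTI30 follows it less closely (0.67), with WT replicate 1 at 0 min far above the rest.

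Of 101 other listed genes of the cold, dehydrin and LEA, regulator and abscisic acid groups, 14 had a probe set listed for that gene alone. The cold list had 5 of 31 (COR47, COR27, AT4G33980, TIL and ZAT10) and the dehydrin and LEA list 7 of 16, with COR47 in both. Regulators had 2 of 26 (HYH and GI) and the abscisic acid list 1 of 32 (HVA22C). The CBF factors themselves were not analysed here. The 14 genes were tested in every comparison by limma with adjusted p under 0.05 over all probe sets.

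At 60 min, 3 of the 14 were called lower in stn7 than in WT and none higher, against 5.54% of all probe sets called lower and 13.1% called in all, and the median log2 difference was -0.04, against 0.02 over all probe sets. HIRD11, a small dehydrin known from *Arabidopsis* for binding metal ions, had 10.75, 10.68 and 11.04 in stn7 and 12.09, 12.16 and 12.10 in WT, a difference of -1.29 ± 0.20 (limma adjusted p = 0.00109). COR47, an acidic dehydrin of the cold response, had 11.35, 11.41 and 11.63 in stn7 and 12.26, 12.23 and 12.16 in WT, a difference of -0.76 ± 0.17 (limma adjusted p = 0.00812). AT4G33980 had 6.40, 6.12 and 5.96 in stn7 and 6.89, 6.68 and 6.85 in WT, a difference of -0.65 ± 0.18 (limma adjusted p = 0.0219). In these 3 genes, as in the COR15 pair, the stn7 arrays lay below all WT arrays at 60 min, as for 13.9% of all probe sets. The AT4G33980 call was lost without stn7 replicate 2 or 3 or WT replicate 1 or 3 of that time (limma adjusted p of 0.0696 to 0.0742).

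At 30 min none of the 14 was called between the genotypes (1.78% of all probe sets), and 3 had an unadjusted p under 0.05 in limma. Of these, GI was higher in stn7, with a mean of 8.92 against 8.71 in WT. HVA22C (7.80 against 8.21) and the low-signal AT4G39130 (3.54 against 3.82) were lower. COR47 and HIRD11 were not among the 3, and differed by -0.30 ± 0.17 and -0.37 ± 0.20 (stn7 minus WT). The median of the 14 was -0.12 against -0.01 over all probe sets. At 0 min 5 of the 14 were called (15.9% of all probe sets), with 3 higher and 2 lower in stn7. The higher ones were HIRD11 by 1.00 ± 0.20 (limma adjusted p = 0.00555), COR47 by 0.96 ± 0.17 (limma adjusted p = 0.00441) and AT4G33980 by 0.86 ± 0.18 (limma adjusted p = 0.00658). GI and the temperature-induced lipocalin TIL were lower, by -0.33 and -0.35 on the log2 scale. The GI call was lost without any 1 of the 6 arrays (limma adjusted p of 0.0532 to 0.132), and the TIL call without stn7 replicate 2 or 3 or WT replicate 1 or 3 (0.0672 to 0.159). The calls of HIRD11, COR47 and AT4G33980 were lost when WT arrays 1 and 3 of 0 min were left out, at 0.65, 0.54 and 0.62 (limma adjusted p of 0.449 for HIRD11 and 0.468 for the others), and when only the groups compared were fitted (limma adjusted p of 0.0754 to 0.0768). The COR15 genes and LTI30 lay between -0.18 and 0.06 at that time, with LTI30 at 0.54 without WT replicate 1.

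In stn7, 2 of the 14 changed from 0 to 30 min (7.25% of all probe sets). GI, a clock gene, was higher by 0.66 ± 0.10 (limma adjusted p = 0.000651), and HVA22C, of a family induced by abscisic acid, was lower by -0.73 ± 0.13 (limma adjusted p = 0.00243). COR47 had 11.96 in stn7 at 30 min against 11.90 at 0 min, and HIRD11 had 11.58 against 11.75, and neither was called. From 0 to 60 min 5 were called in stn7 (16.6%), with HYH and GI higher and HIRD11, AT4G33980 and LEA4-5 lower, the last 3 by -0.93, -1.13 and -0.81 on the log2 scale. From 30 to 60 min 5 were called in stn7 (16.3%). HYH and HVA22C were higher by 0.84 and 0.42, and AT4G33980, HIRD11 and TIL were lower by -1.08, -0.76 and -0.43, where the COR15 genes and LTI30 were higher. Single arrays of stn7 ended some of these calls. LEA4-5 was lost without replicate 1 of 0 min or replicate 2 or 3 of 60 min (limma adjusted p of 0.0818 to 0.171). HYH was lost without replicate 3 of 0 min or of 60 min (0.0725 to 0.0869) for 60 against 0 min, and without replicate 2 or 3 of 30 min or replicate 3 of 60 min (0.0585 to 0.08) for 60 against 30 min. For 60 against 30 min HIRD11 was lost without replicate 3 of 30 min or replicate 2 of 60 min (0.0582 to 0.0753), and HVA22C without replicate 2 or 3 of 30 min or replicate 1 or 3 of 60 min (0.0515 to 0.226). With the 3' to 5' covariate none of the 5 genes was called for 60 against 30 min in stn7, where HYH was at 0.15 (limma adjusted p = 0.723), and for 60 against 0 min HYH (0.24, limma adjusted p = 0.458) and LEA4-5 (limma adjusted p = 0.144) were lost.

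In WT, 4 of the 14 changed from 0 to 30 min (27.6% of all probe sets). COR47 rose by 1.32 ± 0.17 (limma adjusted p = 9.66e-05), HIRD11 by 1.20 ± 0.20 (limma adjusted p = 0.000457) and AT4G33980 by 0.94 ± 0.18 (limma adjusted p = 0.00108), while HVA22C was lower by -0.40. From 0 to 60 min 6 were called in WT (32.7%), of which COR47, HIRD11, ZAT10 and HYH rose, by 1.27, 1.36, 1.63 and 0.83. COR27 and TIL were lower, by -0.75 and -0.30. Without WT arrays 1 and 3 of 0 min, the 30 min rises of HIRD11 and AT4G33980 were 0.85 and 0.70. The 60 min change of COR27 was then -0.60. From 30 to 60 min none was called in WT (1.13% of all probe sets), and 1 had an unadjusted p under 0.05 in limma. The HVA22C call in WT was lost without replicate 1 or 2 of 0 min or of 30 min (limma adjusted p of 0.0506 to 0.116), and the TIL call without replicate 1 or 3 of 0 min or replicate 3 of 60 min (0.0573 to 0.18). With the 3' to 5' covariate HYH in WT at 60 min was at 0.32 (limma adjusted p = 0.191), ZAT10 at 1.34 (limma adjusted p = 0.054) and TIL at -0.31 (limma adjusted p = 0.0894), and none of these was called.

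The genotype difference in the 30 min change was called for 3 of the 14 (2.04% of all probe sets), all lower in stn7: HIRD11 at -1.37 ± 0.28, COR47 at -1.26 ± 0.24 and AT4G33980 at -0.99 ± 0.25. With 1 of the 12 arrays left out, the call was lost in 8 cases for HIRD11 (limma adjusted p up to 0.0754), 5 for COR47 (up to 0.0731) and 10 for AT4G33980 (up to 0.135). For the 60 min change 4 were called (22.4%), the same 3 at -2.30 ± 0.28, -1.71 ± 0.24 and -1.51 ± 0.25, and GI at 0.50 ± 0.14, which was lost without WT replicate 3 of 60 min (limma adjusted p = 0.0523). LEA18, AT2G21490, AT4G38410 and AT4G39130 had group means of 3.32 to 4.32, near the lower quartile of the arrays, and were called in no comparison. HYH also lay in that range in stn7 at 0 and 30 min (4.29 and 4.28) and in WT at 0 min (4.23). Its called rises therefore start from a low signal.

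A main axis of variation within groups, holding 28.0% of that variance, separated 2 WT arrays of 0 min from the rest and moves with these comparisons. Its group means were -2.93, -15.4 and 15.1 in stn7 at 0, 30 and 60 min, against 32.9, -14.8 and -14.9 in WT. With the axis in the fit, the HIRD11 change in WT at 30 min was 0.47 (limma adjusted p = 0.403) and that of COR47 0.65 (limma adjusted p = 0.0729), and neither was called. AT4G33980 at 30 min was at 0.55 (limma adjusted p = 0.439) and also lost its call. At 60 min in WT, COR47 and ZAT10 kept their calls, whereas HIRD11, COR27, HYH and TIL did not. None of the 14 was then called between the genotypes at 0 min or in the genotype difference of either change, and at 60 min 1 of the 3, HIRD11, stayed called. The COR15A difference between the genotypes in the 30 min change was -2.08 with the axis, and its 60 min difference kept its call, whereas that of COR15B did not (-0.75, limma adjusted p = 0.0819). The axis was not tested as a cause.

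The genes whose probe sets were most like COR15A over the 18 arrays, ranked by Pearson correlation among all probe sets of 1 gene other than COR15B and LTI30, were 2A6 (0.88), AT2G04800 (0.87), AT1G31690 (0.86), AT1G67330 (0.82) and AT2G25530 (0.79). The next were SWEET13, a sucrose transporter (0.78), AT1G42705 (0.78), AT3G05600 (0.78), AT2G23120 (0.76) and MT1C, a metallothionein (0.76). For deviations from the group means, the correlations of these 10 genes with COR15A ran from -0.38 for SWEET13 to 0.65 for MT1C. COR15B correlated with COR15A more closely than any of these. All 10 had their lowest group mean in stn7 at 30 min, and 2A6 had 7.71, 7.62 and 7.54 in stn7 against 8.15, 8.28 and 8.30 in WT at that time. In stn7 at 30 min AT3G05600 averaged 5.04 ± 0.67, against 6.05 ± 0.32 in WT, and MT1C averaged 9.39 ± 0.28 in stn7 and 9.97 ± 0.34 in WT (SD, n = 3 each).

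The most opposite probe sets were AT4G32910 (-0.85), FMA, also named FAMA, a factor of guard cell formation (-0.85), the mitochondrial genes nad9 (-0.85) and nad4L (-0.85), and FYD (-0.84). At 30 min AT4G32910 averaged 9.97 ± 0.19 in stn7 and 9.23 ± 0.21 in WT, and nad9 averaged 6.01 ± 0.22 in stn7 and 5.23 ± 0.04 in WT (SD, n = 3 each). Labelling primed on poly(A) tails represents organelle transcripts poorly. These genes were chosen for their likeness to COR15A, so no test is given.

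**Figure D4:**
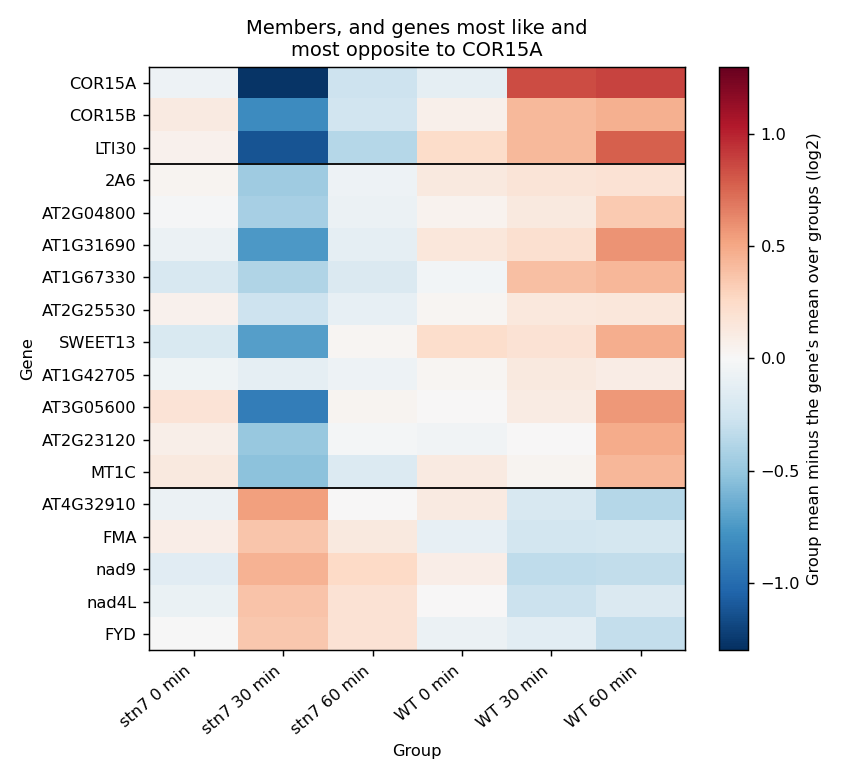
Group means of log2 signal minus the mean over all arrays of each gene, for COR15A, COR15B and LTI30, the 10 genes most like COR15A and the 5 most opposite, by group (stn7 and WT at 0, 30 and 60 min). The alike genes are lowest in stn7 at 30 min and the opposite genes are highest there.

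Arrays had medians of 6.10 to 6.31 and lower quartiles of 3.92 to 4.13. Of 15 leaf markers 6 were measured, none near the lower quartile, and their mean log2 level per array was 10.9 to 11.1 in stn7 at 60 min and 11.2 to 11.4 in every other group. At 60 min LHCB4.2 and SBPASE were lower in stn7 than in WT, by -0.33 and -0.47 on the log2 scale. Root markers (2 of 11 measured) averaged 8.24 to 8.32 in stn7 at 60 min and 7.92 to 8.03 in WT, with PYK10 higher in stn7 by 0.52 (limma adjusted p = 0.0123). The other root marker, EXPA7, averaged 4.13 in stn7 and 4.06 in WT at 60 min, near the lower quartile of the arrays. Guard cell markers (2 of 5 measured) averaged 6.48 to 6.52 in stn7 and 6.34 to 6.55 in WT at 30 min, and 6.92 to 7.06 in stn7 and 6.57 to 6.76 in WT at 60 min. At 30 min the 2 went opposite ways: FAMA averaged 7.30 in stn7 and 6.71 in WT and was higher by 0.59 (limma adjusted p = 0.0222), while AT1G22690 averaged 5.71 in stn7 and 6.25 in WT (limma adjusted p = 0.122). None of 9 seed markers was measured. The part of these markers in the COR15 and LTI30 differences was not tested.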

How the data were processed

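Biotin-labelled leaf RNA from 18 samples was hybridised to 1-colour Affymetrix arrays. The deposited values are on the log2 scale. They were made with GCOS, Affymetrix Expression Console 1.1 and RMA, per the submitters' processing notes. For RMA, settings and probe set definitions are not stated. Of 22810 probe sets, 64 controls were removed. The platform table gave 1 gene for 13513 probe sets, several for 503 and none for 8730, and 13436 of the first matched RefSeq TAIR10.1 names. A probe set shared by several genes was left out of the gene lists.

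A linear model with 6 group means was fitted to all 22746 probe sets in limma 3.58.1 (R 4.3.3), with moderated two-sided tests at 17.8 degrees of freedom and Benjamini-Hochberg adjustment (threshold 0.05) for each of 11 comparisons. The fit was tested on simulated data with independent noise for each probe set. That setting lacks the axis of variation within groups, so it cannot show how calls hold with the axis. Tables and plots were made in Python 3.11.15. The 3 genes and the lists were chosen with earlier results of these data known. From each list, up to 6 called genes were named, and the 10 most alike and 5 most opposite genes were ranked by correlation. The labels call the replicates biological, and the number of arrays limits the precision.

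Replicate numbers did not pair the arrays: of 27 same-numbered pairs in 9 comparisons, 5 correlated over 0.1 (range -0.41 to 0.33). Alternatives were other normalisations, a low-signal filter, a replicate block, covariates, the compared groups alone and leaving out arrays.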

Additional observations from a re-analysis of the deposited data

Results flagged for a closer look

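These results are listed because the change with time differed between stn7 and WT in the interaction term of the limma fit. Each value is the log2 change with time in stn7 minus that in WT. For the 30 min change it was -1.37 for HIRD11 (limma adjusted p = 0.0281), -1.26 for COR47 (limma adjusted p = 0.0247) and -0.99 for AT4G33980 (limma adjusted p = 0.0483). For the 60 min change it was -2.30 for HIRD11 (limma adjusted p = 0.000331), -1.71 for COR47 (limma adjusted p = 0.000404), -1.51 for AT4G33980 (limma adjusted p = 0.000835) and 0.50 for GI (limma adjusted p = 0.0172). Of the 14 listed genes, 3 were called for the 30 min change and 4 for the 60 min change, against 2.04% and 22.4% of all probe sets. HIRD11, COR47 and AT4G33980 were already higher in stn7 at 0 min, by 1.00, 0.96 and 0.86, which enters both changes. Without WT arrays 1 and 3 of 0 min, a choice made after seeing the data, their 30 min values were -1.02, -0.84 and -0.76. With the axis of variation within groups in the fit, none of these calls was kept. The 30 min calls were also lost in 8 (HIRD11), 5 (COR47) and 10 (AT4G33980) of 12 fits with 1 array left out.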

How the results depend on the processing

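The COR15A difference between stn7 and WT at 60 min kept its call in every alternative run, from -1.27 to -0.92 when single arrays were left out. That of COR15B was -0.86 to -0.49 with arrays left out and -0.75 with the axis of variation within groups added to the fit (limma adjusted p = 0.0819). That of LTI30 was -1.36 to -0.91 with arrays left out and -1.14 with only the groups compared, where it passed (limma adjusted p = 0.00987). With the replicate block, which treats replicate numbers as pairing the arrays, the adjusted p at 60 min was 0.00301 for COR15A, 0.0311 for COR15B and 0.0571 for LTI30 in limma. Over all probe sets the calls for the 30 min interaction were 155 with the block against 463 without it.

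Counts of the 14 listed genes moved more. With the axis, calls were 2 for stn7 60 against 30 min, 0 for WT 30 against 0 min, 2 for WT 60 against 0 min, 0 between genotypes at 0 min, 1 at 60 min, and 0 for each interaction. With the 3' to 5' covariate they were 3 for stn7 60 against 0 min and 0 for stn7 60 against 30 min. With only the groups compared they were 3 for stn7 60 against 0 min, 1 for WT 60 against 30 min, 0 between genotypes at 0 min and 0 for the 30 min interaction. Without WT 0 min arrays 1 and 3, chosen after seeing the data, they were 1 for WT 30 against 0 min, 0 between genotypes at 0 min and 0 for the 30 min interaction. With single arrays left out, calls ranged from 2 to 4 for stn7 30 against 0 min, 3 to 7 for 60 against 0 min, 2 to 6 for 60 against 30 min, 3 to 4 between genotypes at 0 min and 0 to 4 for the 30 min interaction. The cause was not tested. Of 441 untested member values, 18 moved by over 1 SD and 22 changed sign. Centring on the median shifted all genes by -0.12 in WT at 60 min and 0.13 in the 60 min interaction.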
